A study of Mus musculus with 10 samples.

Results

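The genes described here were 10 circadian clock genes of the 55401 genes listed for the left ventricle (LV) of 4-week-old mice. They were picked by gene symbol, with earlier results of these data known. Arntl, Clock and Npas2 encode the activators of the loop (the positive limb). Per1, Per2, Per3, Cry1, Nr1d1 and Ciart encode its repressors, and Dbp is an output gene that the loop drives directly. All 10 were listed in every library. Of the 10, 8 had a mean of at least 1 FPKM (fragments mapped to a gene, scaled to its length and to the size of the library) and entered the test, and Arntl and Npas2 did not.

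The mice were wild type (WT) on the C57BL/6 background. Newborn mice, 5 per group, underwent neonatal ascending aorta constriction (nAAC), which loads the LV with pressure from the first days of life, or a sham operation without constriction. All pups stayed with their mothers and were breast fed under an alternating light and dark cycle. LV RNA of each mouse gave 1 library, so each value below is 1 mouse. The hour at which the hearts were collected was not given in the sources used here.

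In each cell the protein of Arntl pairs with that of Clock or Npas2 and turns on genes that carry an E-box, among them the Per, Cry, Nr1d1, Ciart and Dbp genes. The Per and Cry proteins return to block that pair, Ciart protein blocks it as well, and Nr1d1 protein (REV-ERB alpha) shuts off Arntl. In a heart that follows a daily cycle the activator transcripts therefore peak when Nr1d1 and Dbp are low, and Cry1 peaks later than the Per genes. A shift in the time of collection would thus move the activators against Nr1d1 and Dbp.

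The letters that these factors bind were looked for in the promoter windows of RefSeq on the GRCm38.p6 build, each of which runs from 250 bases before to 50 bases after a transcription start. Of the members, 9 had a window, and Per2 had no entry. The E-box CACGTG was in 7.15% of all 32851 windows, and the D-box (TTATGTAA or TTACGTAA, bound by Dbp, Tef, Hlf and Nfil3 proteins) was in 1.06%. The REV-ERB and ROR element (AGGTCA or GGGTCA after A, A, any base and T) was in 0.435%, and the cAMP response element (TGACGTCA) in 1.79%. Both strands were searched, and none of these motifs contains another. The 5 stretches below are shown because they hold the matches of the members, in capitals, each read 5′ to 3′ on the strand of its gene.

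Ciart, chr3:95882252-95882359, minus strand, 3 E-boxes at -116, -58 and -44 from the start: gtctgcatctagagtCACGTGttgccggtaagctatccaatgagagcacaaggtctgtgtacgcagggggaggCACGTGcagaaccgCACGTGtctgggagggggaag
Cry1, chr10:85185084-85185139, minus strand, 1 E-box at -60: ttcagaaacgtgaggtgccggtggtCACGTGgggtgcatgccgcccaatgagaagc
Per1, chr11:69098758-69098813, plus strand, 1 E-box at -166 of a start that lies inside the annotated gene: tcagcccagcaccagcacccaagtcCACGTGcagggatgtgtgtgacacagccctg
Per3, chr4:151044801-151044885, minus strand, 2 D-boxes at -205 and -158: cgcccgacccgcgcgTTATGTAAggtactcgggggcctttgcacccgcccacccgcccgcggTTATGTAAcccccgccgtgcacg
Arntl, chr7:113207528-113207557, plus strand, 1 REV-ERB and ROR element at 28: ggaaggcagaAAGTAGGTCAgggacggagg

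The windows of Clock, Npas2, Nr1d1 and Dbp held none of these letters, which says nothing of elements elsewhere in those genes. Per1 and Arntl each had 2 windows, and the other window of each held no match. Among the partner genes of the loop, Bhlhe41 and Tef had an E-box and Hlf had a cAMP response element. A match describes the sequence and was not measured as a bound site.

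The libraries were estimated at 4.86 to 6.82 gigabases of mapped sequence in nAAC and 5.06 to 5.24 in sham. Mitochondrial genes took 32.8 to 39.9% of TPM (the same values scaled to a fixed total) in nAAC and 33.7 to 49.8% in sham. Over the 11867 genes tested, 3211 passed as higher in nAAC and 546 as lower, and the median log2 fold change (FC) was 0.22. When each library was rescaled to the median ratio of its genes, the split was 1563 up and 1431 down with a median of -0.0008, so both scalings are given for the members below. Of 8 cardiomyocyte markers tested, 2 were higher (Actn2 by 0.67 and Actc1 by 0.60 on the log2 scale) and 2 were lower in nAAC (Pln and Tnni3, which fell by 0.86 and 0.82). Of 7 fibroblast markers 5 were higher, led by Postn (log2 FC 3.78) and Col1a1 (2.09), and of 6 mural cell markers 5 were higher, led by Tagln (1.54). Summed FPKM ran from 958 to 1444 in nAAC and 620 to 874 in sham for the fibroblast list, and from 257 to 373 and 162 to 271 for the mural list. The cardiomyocyte list summed to 14388 to 21293 FPKM in nAAC and 16002 to 28830 in sham. Of 6 endothelial markers Kdr passed (log2 FC 0.66), and of 4 atrial markers Dkk3 passed (log2 FC 2.57). With median-ratio scaling 1 cardiomyocyte marker was higher and 3 were lower, 3 fibroblast and 3 mural markers were higher, Kdr did not pass (log2 FC 0.39, limma adjusted p = 0.18) and Dkk3 did. No marker was at 0 in all libraries. No macrophage or leukocyte marker of 5 and no erythroid marker of 3 passed with limma, against 1 and 0 at an unadjusted p below 0.05. In bulk tissue, fewer cells of a type and less RNA per cell cannot be told apart, and the part of these markers in the clock gene values was not tested.

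Cry1 and Per2, the repressors of the activator pair, were higher in the nAAC LV, and Nr1d1, the repressor of Arntl, was lower. The fold changes were moderate, with group means of Cry1 and Per2 1.70 and 1.63 times as high in nAAC and the mean of Nr1d1 1.53 times as high in sham. The other 5 members tested, Clock, Per1, Per3, Ciart and Dbp, did not pass. Of 8 members tested, 2 were up-regulated, beside 27.1% of all genes tested, and 1 was down-regulated, beside 4.6% of all genes tested (limma on log2(FPKM + 1), Benjamini-Hochberg adjusted p below 0.05). In either direction 31.7% of all genes tested passed. With median-ratio scaling 1 of the 8 members was up-regulated (Cry1), beside 13.2% of all genes, and 1 down-regulated (Nr1d1), beside 12.1% of all genes. No member passed with an absolute log2 FC above 1, beside 5.91% of all genes. The median log2 FC of the 8 members was 0.20, beside 0.22 for all genes tested. Of the 8 members, 6 lay below that all-gene median, and Cry1 and Per2 lay above it.

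**Figure D1:**
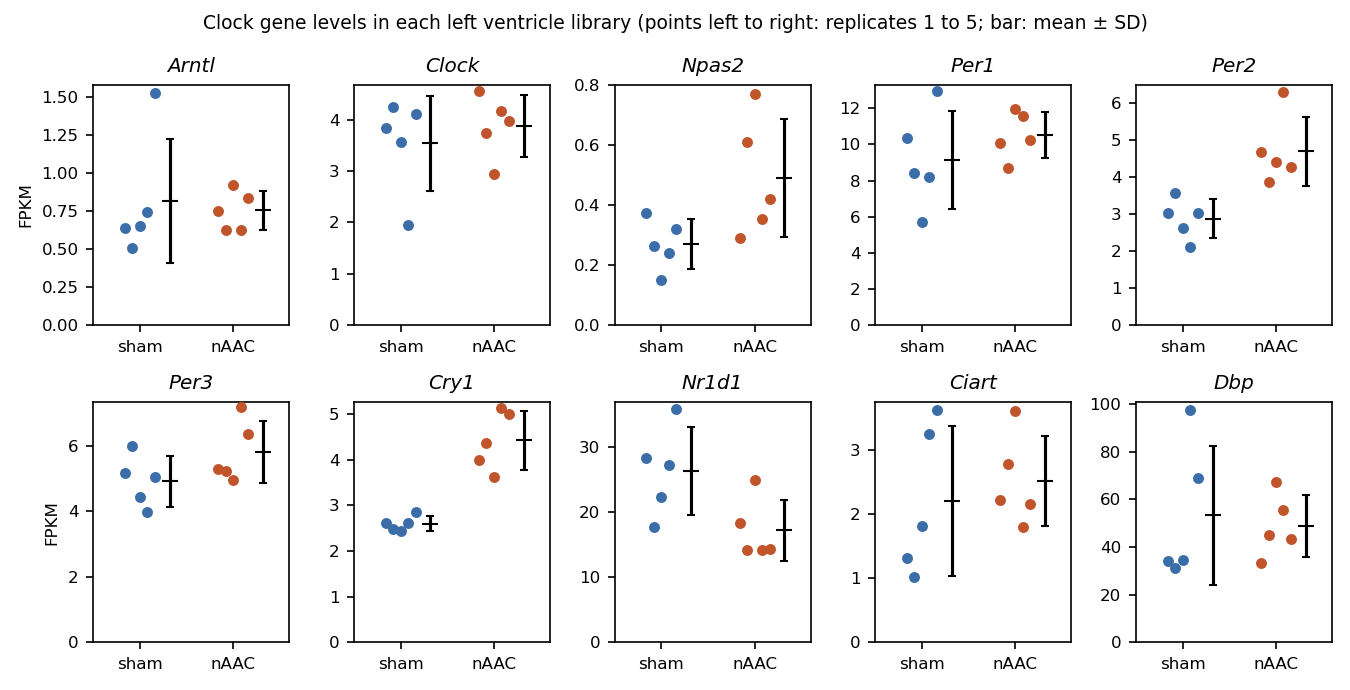
FPKM (vertical axis, from 0) of the 10 clock genes in the 5 sham (blue) and 5 nAAC (orange) mice, with replicates 1 to 5 from left to right in each group and a bar for the mean ± SD. The groups of Cry1 and Per2 do not overlap and those of the other 8 genes do, where 22.3% of all genes tested do not overlap in either direction. Sham mice 4 and 5 are the highest of their group in Ciart and Dbp.

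Cry1 (ENSMUSG00000020038, GRCm38 chr10:85131700-85185064, minus strand) encodes the strongest repressor of the activator pair. It measured 4.00, 4.36, 3.63, 5.14 and 5.01 FPKM in nAAC mice 1 to 5. In sham mice 1 to 5 it measured 2.61, 2.48, 2.45, 2.61 and 2.86 FPKM. Every nAAC mouse was above every sham mouse, as in 18.9% of all genes tested, and the sham mice were tight around their mean. The means were 4.43 ± 0.645 FPKM in nAAC and 2.60 ± 0.16 FPKM in sham (SD, n = 5 each). Cry1 had a log2 FC of 0.58 (SE 0.11, limma adjusted p = 0.0012), and the two-sided exact permutation test gave p = 0.00794, the smallest that 5 mice against 5 can give. It passed in all 20 refits with another scaling, unit, pseudocount, filter or covariate or without 1 mouse, with log2 FC between 0.31 and 0.78. With median-ratio scaling it was 0.37 (SE 0.09, limma adjusted p = 0.010), and with trends of GC content and transcript length removed 0.31 (SE 0.08, limma adjusted p = 0.012).

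Per2 (ENSMUSG00000055866, chr1:91415982-91459324, minus strand) encodes the partner that carries Cry proteins in the repressor complex. In nAAC mice 1 to 5 it measured 4.66, 3.87, 4.39, 6.28 and 4.26 FPKM. The sham mice measured 3.04, 3.56, 2.63, 2.12 and 3.02 FPKM. The groups did not overlap, as in 18.9% of all genes tested with nAAC the higher group. The highest sham mouse (mouse 2) and the lowest nAAC mouse (mouse 2) lay close together. Per2 had a log2 FC of 0.55 (SE 0.14, limma adjusted p = 0.0079), with means of 4.69 ± 0.935 and 2.87 ± 0.534 FPKM (SD, n = 5 each). The call was lost under 4 refits. The log2 FC was 0.33 with median-ratio scaling (limma adjusted p = 0.088) and 0.34 with upper-quartile scaling (limma adjusted p = 0.11), 0.51 with Xist as a covariate (limma adjusted p = 0.057) and 0.19 with GC and length trends removed (limma adjusted p = 0.19).

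Nr1d1 (ENSMUSG00000020889, chr11:98767932-98775333, minus strand) encodes the nuclear receptor REV-ERB alpha. It measured 18.4, 14.2, 25, 14.2 and 14.4 FPKM in nAAC mice 1 to 5. It measured 28.4, 17.8, 22.3, 27.2 and 35.9 FPKM in sham mice 1 to 5. The groups overlapped, since nAAC mouse 3 was above sham mice 2 and 3 and nAAC mouse 1 was above sham mouse 2, while 3 of 5 nAAC mice lay between 14.2 and 14.4. The means were 17.2 ± 4.70 and 26.3 ± 6.79 FPKM (SD, n = 5 each). It fell by 0.58 on the log2 scale (SE 0.20, limma adjusted p = 0.040), and the two-sided exact permutation test gave an unadjusted p = 0.0397. The call lay close to the threshold. Without 1 mouse the call was lost in 8 of 10 refits (limma adjusted p 0.051 to 0.10) and passed without nAAC mouse 3 or without sham mouse 2. The log2 FC stayed between -0.72 and -0.46 in these refits. The call was also lost on the TPM scale (log2 FC -0.42, limma adjusted p = 0.13) and with no filter on low genes (limma adjusted p = 0.10). With median-ratio scaling the difference was larger (log2 FC -0.85, limma adjusted p = 0.0057), as it was with GC and length trends removed (-0.96, limma adjusted p = 0.00082).

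The last 1075 bases of Nr1d1 lie across from Thra, the thyroid hormone receptor alpha gene, on the other strand. Whether the authors counted by strand was not given, so reads of the shared stretch could not be assigned with certainty. Thra measured 19.6 ± 2.02 FPKM in nAAC and 23.3 ± 7.31 in sham (SD, n = 5 each, log2 FC -0.20, SE 0.17, limma adjusted p = 0.40). Sham mouse 5 was the highest of all 10 mice in both genes, with 35.7 FPKM of Thra. The part of the shared bases in the Nr1d1 value was not tested.

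Per1 and Per3, which encode the other PER repressors, did not pass. Per1 (ENSMUSG00000020893, chr11:69095217-69109960, plus strand) measured 10.1, 8.72, 11.9, 11.6 and 10.3 FPKM in nAAC mice 1 to 5 and 10.4, 8.40, 5.70, 8.20 and 13.0 FPKM in sham mice 1 to 5. The nAAC mice all lay within the range of the sham mice, which was set by sham mouse 3 and sham mouse 5. The log2 FC of Per1 was 0.22 (SE 0.17, limma adjusted p = 0.35), and it was negative under 4 refits, between -0.24 and -0.002. Per3 (ENSMUSG00000028957, chr4:151003652-151044665, minus strand) measured 5.30, 5.24, 4.97, 7.19 and 6.38 FPKM in nAAC mice 1 to 5 and 5.16, 6.0, 4.43, 3.97 and 5.04 in sham mice 1 to 5. Its groups overlapped, and nAAC mice 4 and 5 were above every sham mouse. The log2 FC was 0.20 (SE 0.13, limma adjusted p = 0.24) and -0.04 with median-ratio scaling. Per3 lies within the annotated span of Camta1 on the same strand, and Camta1 averaged 28.0 FPKM in nAAC and 17.2 in sham, so reads of both could be shared in introns.

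Ciart (ENSMUSG00000038550, chr3:95878503-95882251, minus strand), whose protein CHRONO binds the activator pair and silences it, varied widely between sham mice. It measured 2.23, 2.79, 3.60, 1.79 and 2.16 FPKM in nAAC mice 1 to 5 and 1.32, 1.02, 1.82, 3.24 and 3.62 in sham mice 1 to 5. Sham mice 4 and 5 were above sham mice 1 to 3, and the sham group spanned the nAAC group on both sides. Its log2 FC was 0.19 (SE 0.23, limma adjusted p = 0.54). Ciart lies wholly across from C920021L13Rik on the other strand, which was listed at about the same low level in both groups (0.934 ± 0.267 FPKM in nAAC and 1.07 ± 0.364 in sham, SD, n = 5 each).

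Dbp (ENSMUSG00000059824, chr7:45705088-45710203, plus strand), a D-box activator that swings widely over the day in many tissues, was the most abundant member. It measured 33.4, 45.1, 67.4, 55.6 and 43.3 FPKM in nAAC mice 1 to 5. It measured 34.2, 31.3, 34.7, 97.2 and 68.9 FPKM in sham mice 1 to 5. Sham mice 1 to 3 were close together, and sham mice 4 and 5 were above them as for Ciart. The means were 49.0 ± 13.0 FPKM in nAAC and 53.2 ± 29.0 FPKM in sham (SD, n = 5 each). Dbp had a log2 FC of -0.01 (SE 0.30, limma adjusted p = 0.99), with an SE larger than that of any other member, and leaving out 1 mouse moved it between -0.16 and 0.25. The last 737 bases of Dbp lie across from Sphk2 on the other strand, which measured 4.90 ± 0.478 FPKM in nAAC and 3.24 ± 1.0 in sham (SD, n = 5 each).

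The positive limb showed no difference that passed. Clock (ENSMUSG00000029238, chr5:76209868-76304792, minus strand), the activator with histone acetyltransferase activity, measured 4.56, 3.73, 2.94, 4.18 and 3.98 FPKM in nAAC mice 1 to 5 and 3.85, 4.24, 3.56, 1.95 and 4.10 in sham mice 1 to 5. Sham mouse 4 was the lowest of the 10 mice, and the others lay between 2.94 and 4.56. The log2 FC was 0.12 (SE 0.16, limma adjusted p = 0.58), and it was -0.025 without sham mouse 4 and -0.10 with median-ratio scaling. A processed copy of another gene, Ube2n-ps1, lies inside Clock on the same strand and averaged 11.7 FPKM in nAAC and 11.1 in sham.

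Arntl (ENSMUSG00000055116, chr7:113207465-113314126, plus strand), which encodes BMAL1, the partner without which the loop stops, was below the filter. It measured 0.751, 0.625, 0.922, 0.627 and 0.836 FPKM in nAAC mice 1 to 5 and 0.640, 0.505, 0.650, 0.745 and 1.52 in sham mice 1 to 5. Sham mouse 5 was far above the other 9 mice, which overlapped. In a fit with no filter the log2 difference was -0.03 (SE 0.14, limma adjusted p = 0.92). Npas2 (ENSMUSG00000026077, chr1:39193731-39363236, plus strand), which can replace Clock in the activator pair, measured 0.291, 0.611, 0.771, 0.355 and 0.422 FPKM in nAAC mice 1 to 5. In sham mice 1 to 5 it measured 0.373, 0.264, 0.152, 0.239 and 0.32 FPKM. The groups overlapped, and nAAC mice 2 and 3 were the highest of all. The log2 difference of Npas2 with no filter was 0.22 (SE 0.09, limma adjusted p = 0.15, two-sided exact permutation p = 0.0397 unadjusted). The added constant of 1 FPKM shrinks a difference at such low levels, and with a constant of 0.1 that of Npas2 was 0.64.

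**Figure D2:**
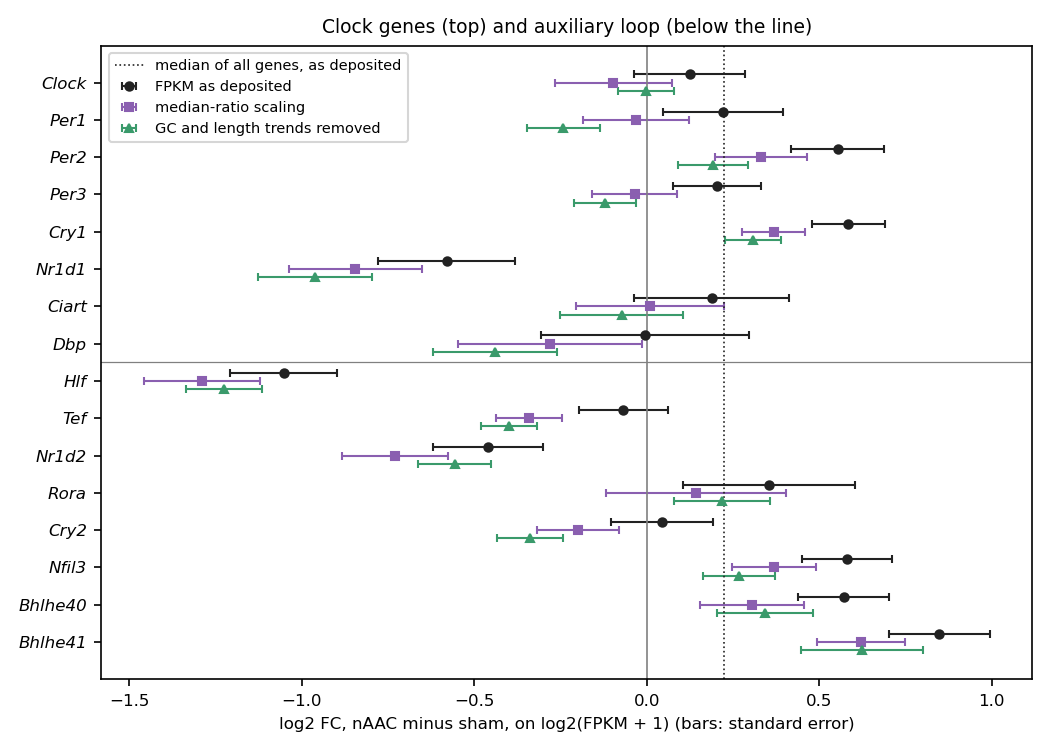
Log2 FC of nAAC minus sham (horizontal axis, on log2(FPKM + 1), bars for the standard error) of the 8 clock genes tested and, below the line, of 8 auxiliary loop genes, for the deposited FPKM (black), for median-ratio scaling (purple) and with GC content and length trends removed (green). The dotted line is the median of all genes as deposited (0.22). Cry1, Per2 and Nr1d1, and below the line Hlf, Nr1d2, Nfil3, Bhlhe40 and Bhlhe41, stay on their side of 0 by more than a standard error under all 3. Of these, Per2 and Bhlhe40 do not pass with median-ratio scaling or with trends removed, and Nfil3 does not pass with trends removed (limma adjusted p below 0.05).

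The levels of the members in FPKM, which is scaled to gene length, ran over the 10 mice from Dbp (mean 51.1 FPKM) through Nr1d1 (21.8), Per1 (9.82), Per3 (5.37), Per2 (3.78), Clock (3.71), Cry1 (3.52) and Ciart (2.36) to Arntl (0.782) and Npas2 (0.380). The first 4 of these steps, down to Per2, and the last ones, from Ciart to Arntl and from Arntl to Npas2, held in all 10 mice. Per2 was above Clock in 6 of 10 mice and Clock above Cry1 in 5 of 10, so these 3 genes could not be put in order. Cry1 was above Ciart in 8 of 10 mice. Dbp and Nr1d1 were high and Arntl low in each library of both groups. The Npas2 level is the least certain on this scale, since its FPKM stood 18.3 times higher relative to its coverage than that of a typical gene. That factor was 2.64 for Arntl and ran from 1.11 (Cry1) to 1.82 (Ciart) in the rest, so the order above is one of FPKM only.

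The ratio of members within a library does not depend on how the library was scaled. Cry1 over Nr1d1 was 0.217, 0.307, 0.145, 0.363 and 0.347 in nAAC mice 1 to 5 and 0.0921, 0.139, 0.110, 0.0960 and 0.0797 in sham mice 1 to 5. Every nAAC mouse was above every sham mouse, although nAAC mouse 3 and sham mouse 2 were close. Per2 over Nr1d1 ranged from 0.176 to 0.444 in nAAC and from 0.0779 to 0.200 in sham, and here nAAC mouse 3 lay below sham mouse 2. Nr1d1 over Arntl ranged from 17.3 to 27.1 in nAAC and from 23.5 to 44.4 in sham. Dbp over Arntl ranged from 44.4 to 88.6 in nAAC and from 45.2 to 131 in sham, a wide overlap. These ratios were built from the members described above and carry no test of their own.

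To describe how the limbs of each library stood to each other, log2(FPKM + 1) of each gene was centred on its mean over the 10 mice. It was then averaged over the 3 activators and over the 6 early targets (Per1, Per2, Per3, Nr1d1, Ciart and Dbp), with Cry1 kept apart. The limbs had opposite signs in 4 of 10 mice and the same sign in 6 of 10. The target score averages genes that moved apart between the groups, such as Nr1d1 (log2 FC -0.58) and Per2 (0.55). The activators Arntl and Npas2 were below the filter. The signs therefore cannot tell the time of collection, which was not tested. Sham mouse 5 was the highest in both scores (0.20 for the activators and 0.32 for the targets), and nAAC mouse 3 was also above 0 in both (0.09 and 0.28). Sham mice 1 to 3 were below 0 in both scores. Sham mouse 4 had the largest opposite pair, with -0.27 for the activators and 0.11 for the targets, and its Clock value was the lowest of all mice.

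**Figure D3:**
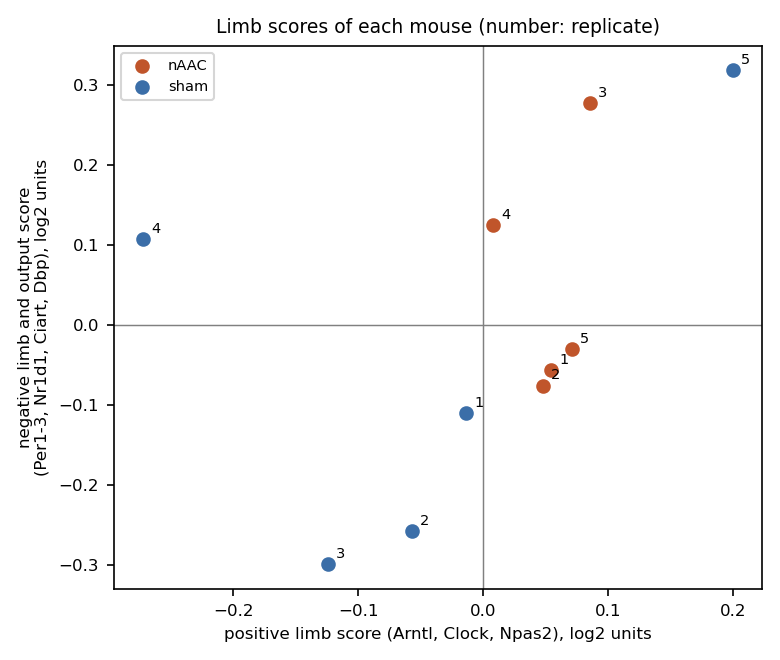
Mean centred log2(FPKM + 1) of the activators Arntl, Clock and Npas2 (horizontal axis) against that of Per1, Per2, Per3, Nr1d1, Ciart and Dbp (vertical axis) in each nAAC (orange) and sham (blue) mouse, with the replicate number beside each point. Points in the upper right and lower left have limbs of the same sign (6 of 10), and sham mice 5 and 3 lie at opposite ends of that diagonal.

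By group, the activator score was 0.05 ± 0.03 in nAAC and -0.05 ± 0.17 in sham, and the target score was 0.05 ± 0.15 and -0.05 ± 0.26 (mean ± SD, n = 5 each). Both scores overlapped between the groups, and both had a wider spread in sham. With median-ratio scaling the nAAC minus sham difference turned from 0.11 to -0.03 for the activators and from 0.10 to -0.14 for the targets. After each mouse was set against its own group mean, the limbs had opposite signs in 5 of 10 mice.

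Pairs of members were also compared over the 10 mice after the group means were removed. The mice share their operation, and genes of 1 library share its depth and base composition, so these correlations are descriptions without a test. Among the 18 pairs of an activator with an early target, Pearson's r was below 0 in 7 and above 0 in 11, with a median of 0.33. Some of these signs turned with GC and length trends removed. Clock with Per2 and Per3 went from 0.67 and 0.68 to -0.20 and -0.29. Clock with Nr1d1 and Ciart went from -0.29 and -0.58 to 0.26 and 0.01. Pairs with Arntl or Npas2 have no such value, since both were below the filter. Arntl rose and fell with Nr1d1 (r = 0.76, Spearman's rho = 0.59), Ciart (r = 0.75, rho = 0.73) and Per1 (r = 0.65, rho = 0.47), which its own loop would put in antiphase. With median-ratio scaling these were 0.68, 0.71 and 0.52. Sham mouse 5 was the highest sham mouse in all 4 of these genes. The pair with the most negative r was Clock with Dbp (r = -0.74, rho = -0.58), at -0.94 with median-ratio scaling and -0.51 with GC and length trends removed.

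**Figure D4:**
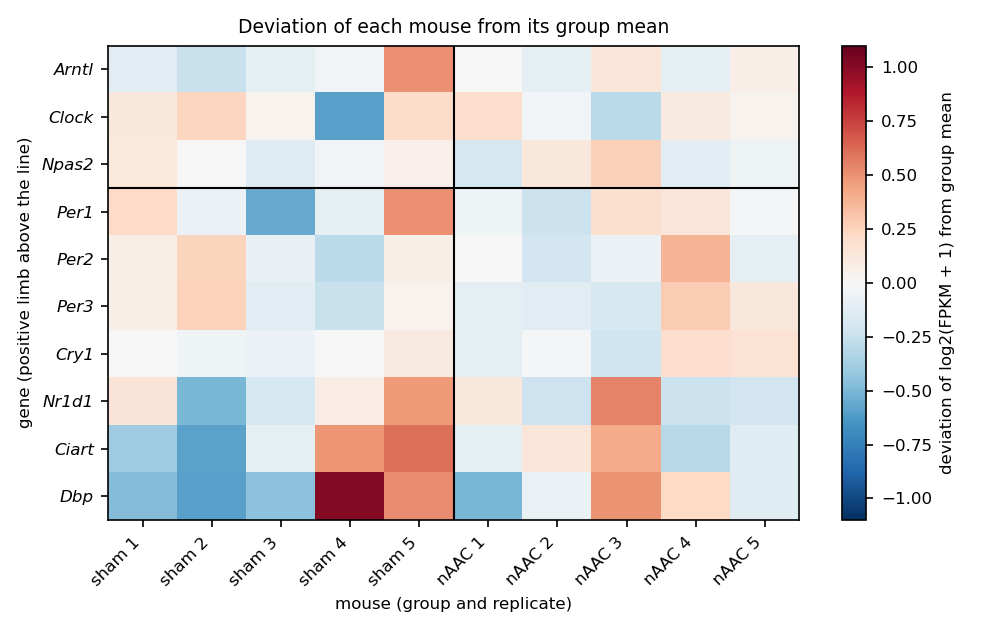
Deviation of log2(FPKM + 1) of each mouse (columns) from its group mean for the 10 clock genes (rows, activators above the horizontal line), red above and blue below the mean. Sham mouse 5 is above its group mean in all 10 rows, and sham mouse 4 pairs a low Clock with high Ciart and Dbp.

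The repressors and the output fell loosely into 2 blocks. Per2 and Per3 varied together (r = 0.85, rho = 0.77), and Per3 with Cry1 (r = 0.61, rho = 0.58), but Per2 with Cry1 had only 0.30 (rho = 0.21). Ciart varied with Dbp (r = 0.82, rho = 0.77) and with Nr1d1 (r = 0.73, rho = 0.59). Nr1d1 with Dbp had r of 0.52 (rho = 0.36), and 0.08 with GC and length trends removed. Between the blocks r ran from -0.68 for Per3 with Ciart (rho = -0.75, and -0.89 with GC and length trends removed) to 0.13 for Cry1 with Dbp (rho = 0.28). The sign of Cry1 with Dbp turned with the processing, to -0.53 with median-ratio scaling and -0.73 with GC and length trends removed. Per1 had r of 0.60 with Nr1d1 (rho = 0.55), 0.39 with Per2, 0.31 with Per3 and 0.28 with Ciart.

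Among genes with a mean of at least 5 FPKM, those most like Dbp were not clock genes. Ciart (r = 0.82 with Dbp), Per2, Cry1, Clock, Arntl and Npas2 lay below that level and were not ranked. Among 6504 genes with a mean of at least 5 FPKM, ranked by Pearson's r with Dbp over the 10 mice after the group means were removed, the first 6 had r between 0.984 and 0.995. They were Pkig, a protein kinase A inhibitor, the predicted genes Gm10443 and Gm10774, H2-Ke6, Polr3gl, a subunit of RNA polymerase III, and Rarres2, which encodes the adipokine chemerin. The 6 genes at the other end had r between -0.955 and -0.943. They were the mitochondrial genes mt-Atp8, mt-Nd2 and mt-Nd4, the predicted gene Gm28439, Tbl1xr1, a corepressor component, and Shoc2, a scaffold of Ras signaling. Nr1d1 stood at rank 3099 (r = 0.52), Per1 at rank 3645 (r = 0.37) and Per3 at rank 5476 (r = -0.39). Among the partner genes, Bhlhe41 stood at rank 593 (r = 0.895), Tef at rank 3284 (r = 0.48) and Hlf at rank 6273 (r = -0.71). Mitochondrial TPM was 33.7% and 38.3% in sham mice 4 and 5, where Dbp was high, and 46.5 to 49.8% in sham mice 1 to 3, and its part in the Dbp value was not tested.

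The auxiliary loop of the clock, which ties the core genes to their D-box and REV-ERB elements, had members that passed in both directions. Of 9 genes tested, 3 were up-regulated, beside 27.1% of all genes, and 2 were down-regulated, beside 4.6% of all genes. The median log2 FC was 0.04 beside 0.22 for all genes. With median-ratio scaling the counts were 2 and 3, beside 13.2% and 12.1% of all genes. Hlf, a D-box activator of the family of Dbp, measured 2.92, 3.42, 2.77, 4.00 and 4.29 FPKM in nAAC mice 1 to 5 and 8.60, 10.5, 9.68, 5.96 and 7.10 in sham mice 1 to 5. The groups did not overlap, as in 3.46% of all genes tested with nAAC the lower group. Hlf fell by 1.05 on the log2 scale (SE 0.15, limma adjusted p = 0.00023) and passed in all 20 refits. Its relative Tef had a log2 FC of -0.07 (SE 0.13, limma adjusted p = 0.71), and it passed as lower with median-ratio scaling (-0.34, limma adjusted p = 0.019), with upper-quartile scaling (-0.33, limma adjusted p = 0.024) and with GC and length trends removed (-0.40, limma adjusted p = 0.0026).

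Bhlhe41 and Bhlhe40 encode DEC2 and DEC1, which compete with the activator pair for E-boxes. Bhlhe41 measured 6.92, 7.15, 7.24, 7.47 and 6.09 FPKM in nAAC mice 1 to 5 and 3.08, 2.59, 2.71, 4.98 and 4.2 in sham mice 1 to 5. The nAAC mice were all above the sham mice, as in 18.9% of all genes tested. The log2 FC of Bhlhe41 was 0.85 (SE 0.15, limma adjusted p = 0.00079), passed in all 20 refits. Bhlhe40 had 21.1 ± 3.05 FPKM in nAAC and 13.9 ± 1.70 in sham (SD, n = 5 each, log2 FC 0.57, SE 0.13, limma adjusted p = 0.0054), and with median-ratio scaling 0.31 (limma adjusted p = 0.17). Nfil3, the repressor that opposes Dbp at the D-box, had 4.09 ± 0.626 and 2.41 ± 0.460 FPKM (SD, n = 5 each, log2 FC 0.58, SE 0.13, limma adjusted p = 0.0048), and it did not pass with GC and length trends removed (limma adjusted p = 0.075).

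Nr1d2, which encodes REV-ERB beta and shares its targets with Nr1d1, was lower in nAAC as Nr1d1 was. It measured 16.7, 18.6, 17.6, 26.2 and 22.2 FPKM in nAAC mice 1 to 5 and 24.1, 35.4, 31.9, 22.7 and 27.5 in sham mice 1 to 5. The groups overlapped through nAAC mouse 4 and sham mice 1 and 4. Nr1d2 fell by 0.46 on the log2 scale (SE 0.16, limma adjusted p = 0.041), and the call was lost in 7 of 10 refits without 1 mouse (limma adjusted p up to 0.096). Over all 20 refits the call was lost in 12, among them TPM (log2 FC -0.30, limma adjusted p = 0.16). With median-ratio scaling the difference was larger (log2 FC -0.73, limma adjusted p = 0.0036). Rora, which activates at the element where REV-ERB proteins repress, had a log2 FC of 0.35 (SE 0.25, limma adjusted p = 0.29). Cry2 had 0.04 (SE 0.15, limma adjusted p = 0.84), against 0.58 for Cry1. Arntl2 and Rorb were below the filter, with means of 0.961 and 0.111 FPKM in nAAC and 0.523 and 0.0337 FPKM in sham.

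Of 14 regulators of clock proteins tested, 2 were higher and 1 was lower in nAAC, beside 27.1% and 4.6% of all genes. Their median log2 FC was 0.07 beside 0.22 for all genes. With median-ratio scaling none of them was higher with limma (4 were higher at an unadjusted p below 0.05 as deposited) and 5 were lower, beside 12.1% of all genes lower. Nampt, the enzyme that makes NAD for the deacetylase SIRT1 and is itself driven by the clock, averaged 20.8 ± 4.54 FPKM in nAAC and 35.6 ± 4.97 in sham (SD, n = 5 each). It fell by 0.77 on the log2 scale (SE 0.16, limma adjusted p = 0.0032) and passed in all 20 refits. Its groups did not overlap, as in 3.46% of all genes tested with nAAC the lower group. Timeless, a partner of the Per and Cry proteins that also acts in DNA replication, had a log2 FC of 0.63 (SE 0.18, limma adjusted p = 0.018). Csnk1d, the kinase that marks Per proteins for decay, had 0.36 (SE 0.12, limma adjusted p = 0.040). Neither passed with median-ratio scaling, where the log2 FC was 0.42 for Timeless and 0.09 for Csnk1d.

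The 15 output genes tested had a median log2 FC of -0.08. With median-ratio scaling 2 were higher and 7 lower, beside 13.2% and 12.1% of all genes. As deposited 3 were higher and 2 lower, beside 27.1% and 4.6% of all genes. The higher ones were Bhlhe41, Cdkn1a, a brake of the cell cycle (log2 FC 1.41, SE 0.18, limma adjusted p = 9.4e-05), and Tspan4 (0.64, SE 0.19, limma adjusted p = 0.020). The lower ones were Hlf and Nampt, which other lists hold as well. The cardiac outputs Klf15, Kcnip2 and Pdk4 did not pass, with log2 FC of -0.34, -0.49 and -0.75 (SE 0.15, 0.21 and 0.37).

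Glucocorticoids, body temperature and recent stimulation act on clock genes from outside the loop, so genes that read them were set beside the members. Of 11 glucocorticoid-responsive genes tested, 3 were higher and 1 was lower, beside 27.1% higher and 4.6% lower of all genes tested. The metallothioneins Mt2 and Mt1 had log2 FC of 2.12 (SE 0.28) and 0.88 (SE 0.19), and Cebpd 0.81 (SE 0.29), while Klf9 fell by 0.53 (SE 0.16). Cebpd did not pass in 13 of 20 refits. Fkbp5 and Tsc22d3, direct targets of the glucocorticoid receptor, did not pass, with log2 FC of 0.57 (SE 0.22) and 0.08 (SE 0.19). The median of the list was 0.08.

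Of 8 temperature-responsive genes 4 were higher and 1 was lower, beside 27.1% and 4.6% of all genes tested. The median log2 FC was 0.72 beside 0.22 for all genes. With median-ratio scaling the counts were also 4 and 1, beside 13.2% and 12.1% of all genes. The heat shock genes Hspa1b, Hspa1a, Hsp90aa1 and Hsph1 had log2 FC of 1.61, 1.57, 1.47 and 1.12. In each, the nAAC mice were all above the sham mice, as in 18.9% of all genes tested. Hspa1a and Hspa1b are near-identical copies that share reads, so their split is uncertain. The cold-inducible Cirbp fell by 0.64 (SE 0.22, limma adjusted p = 0.040, lost in 10 of 20 refits), and its partner Rbm3 had -0.16 (SE 0.19). All 6 immediate early genes tested were higher, beside 27.1% of all genes tested (median log2 FC 1.08, 5 of 6 with median-ratio scaling). They were Atf3 (1.37), Junb (1.20), Egr1 (1.09), Nr4a1 (1.06), Jun (0.93) and Ier2 (0.55). These genes moved with the operation in the libraries where Cry1 and Per2 were high, and their part in the clock gene values was not tested.

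Of 10 genes annotated beside or across the members and tested, 4 were higher, beside 27.1% of all genes tested. They were Car11 (log2 FC 0.69), Sphk2 (0.51), Med24 (0.41) and Vamp2 (0.37). With median-ratio scaling 1 was higher and 1 lower, beside 13.2% and 12.1% of all genes. The atrial marker Myl7 was high in nAAC mice 2 and 3 (54.0 and 79.8 FPKM) and sham mouse 1 (22.3 FPKM) and below 12.0 FPKM in the others. With Myl7 as a covariate the log2 FC was 0.60 for Cry1, 0.55 for Per2 and -0.63 for Nr1d1, each with a limma adjusted p below 0.05. Xist, which female tissue expresses, was higher on average in nAAC (13.3 against 2.86 FPKM), and with Xist as a covariate Cry1 (0.54) and Nr1d1 (-0.82) passed and Per2 did not.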

How the data were processed

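RNA-seq of 5 nAAC and 5 sham LVs was analysed from 1 gene table per mouse. In these deposited tables the authors give FPKM, TPM and coverage signal per gene on the mm10 build (GRCm38). The aligner, the quantification tool and the use of strand were not given in the sources used here. Rows of a gene that a table lists more than once (7 to 12 per library) were summed. FPKM holds no read counts, so no count test was run, and depth was estimated from coverage over FPKM.

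The 11867 of 55401 genes whose mean FPKM reached 1 were compared as log2(FPKM + 1) with limma 3.58.1 in R 4.3.3 (empirical Bayes trend, two-sided, Benjamini-Hochberg adjusted, passed at 0.05). Single genes also had an exact permutation test over mice. A fold change on this scale understates that of low genes. The script was tested on simulated data. Identical libraries were looked for, and 0 pairs were found.

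The members and the lists were chosen with earlier results of these data known. The 10 members were named in full, and from each list (auxiliary loop, protein regulators, outputs, glucocorticoid, temperature, immediate early, neighbours and cell type markers) the genes that passed (for markers, those that led), or the 4 with the largest change where more than 6 passed. For likeness to Dbp the 6 highest and 6 lowest correlations were named. A member of the auxiliary loop that was tested is not reported here by name. Some other list genes were named after their values were seen. Alternatives were TPM, scaling by median ratio or upper quartile, a pseudocount of 0.1, no filter, stricter thresholds, a replicate block, Xist as a covariate, removal of GC and length trends (loess, 11860 genes), and leaving out each mouse. Depth-scaled coverage and Myl7 as a covariate were added after the data were seen. Titles number the mice within a group. Coordinates matched GENCODE for all 10 members.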

Additional observations from a re-analysis of the deposited data

Results flagged for a closer look

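Values in 44 groups of 5 mice were examined (the 10 members, 10 genes of the clock lists that passed, and both limb scores, each in nAAC and in sham). In 3 of them, 1 mouse stood apart from the others by a gap of over 0.71 of the group's range, where chance would give about 2.2. Sham mouse 5 was the highest in Arntl, with a gap of 0.714 of the range of log2(FPKM + 1). Sham mouse 4 was the lowest in Clock, with a gap of 0.758, and the lowest in Bhlhe40, with a gap of 0.908. Without sham mouse 4 the log2 FC of Clock was -0.025 in place of 0.12. The cause of these gaps was not tested.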

How the results depend on the processing

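All the alternatives were run for the members tested and the counts. Arntl and Npas2, which were below the filter, had fewer, and the limb scores had median-ratio scaling and a pseudocount of 0.1. The cause of a change was not tested. Depth limits the low members, Arntl and Npas2. Members up-regulated numbered 1 with median-ratio scaling, upper-quartile scaling, Xist as a covariate or GC and length trends removed, and 0 where |log2 FC| above 1 was also required. With no such requirement, 3 of 8 members had an unadjusted limma p below 0.05 in either direction. Members down-regulated numbered 0 on TPM, with no filter, at an adjusted p below 0.01 and with |log2 FC| above 1, and 0 to 1 without 1 mouse. Genes up-regulated numbered 1563 with median-ratio scaling, 1620 with upper-quartile scaling, 4973 on TPM, 1820 at an adjusted p below 0.01, 595 with |log2 FC| above 1, 1593 with Xist and 1775 with trends removed. Genes down-regulated numbered 1431, 1359, 344, 312, 106 and, with trends removed, 1762. Of the auxiliary, protein-level and output genes, 7 passed up and 3 down. Those up numbered 3 with median-ratio or upper-quartile scaling, 4 at 0.01 or with Xist, 1 with |log2 FC| above 1 and 2 with trends removed. Those down numbered 11, 9, 1 with |log2 FC| above 1, 14 with trends removed, and 2 to 5 without 1 mouse (5 without nAAC mouse 4).

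The log2 FC with median-ratio scaling, upper-quartile scaling and trends removed was -0.098, -0.089 and -0.0036 for Clock, -0.031, -0.019 and -0.24 for Per1, -0.036, -0.025 and -0.12 for Per3, and 0.33, 0.34 and 0.19 for Per2. With Xist it was -0.0017 for Per1, 0.51 for Per2 and -0.042 for Ciart, which was at -0.074 with trends removed. Dbp was at 0.16 on TPM and 0.012 on depth-scaled coverage, and Nr1d1 at -0.42 on TPM. Per2 (0.55), Cry1 (0.58) and Nr1d1 (-0.58) did not exceed 1 in size, and Nr1d1 did not pass with no filter or at 0.01. Without 1 mouse, Clock ranged from -0.025 to 0.20, Dbp from -0.16 to 0.25 and Nr1d1 from -0.72 to -0.46. With a pseudocount of 0.1 the difference of Npas2 was 0.64 and that of the activator score 0.26, and with median-ratio scaling the scores differed by -0.027 and -0.14. A replicate block gave an adjusted p of 0.0051 for Cry1, 0.029 for Per2, 0.048 for Nr1d1 and 0.071 for Nr1d2 (limma), with 2929 genes up and 497 down. Deviations of mice with the same number correlated at 0.19, -0.10, -0.32, -0.03 and 0.04. The labels give the number only as part of a name, so whether it pairs mice is not known.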
